A study of Homo sapiens with 60 samples.

Results

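Sibjeondaebo-tang (SDT) was compared with Palmul-tang (PMT) in HepG2 cells, a line established from human liver carcinoma tissue, with the dose level as a factor. The comparison takes every labelled library of either formula, 9 of SDT and 6 of PMT, which is 15 of the 60 libraries in the series. Both are tonifying decoctions of Korean medicine, given to the cells as lyophilised water extracts for 24 h. Each was used at 20 (Low), 100 (Medium) and 500 (High) µg/mL, with 3 SDT libraries and 2 PMT libraries per dose. SDT holds the herbs of PMT together with Astragalus root and cinnamon bark, as textbook background that the labels do not state. The doses match by mass of extract and not by the amount of each shared herb. Vehicle cells, which the sample labels give as 0.1% DMSO and the series text as 2%, are used here only for levels. What the larger formula adds to the smaller one is the question this comparison addresses, with all doses pooled.

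A liver cell meets such extracts through a few well-known sensing routes. Planar aromatic compounds activate the aryl hydrocarbon receptor (AhR), which drives CYP1A1, and electrophiles release NRF2 from KEAP1, which drives NQO1 and glutathione synthesis genes. Bone morphogenetic protein (BMP) signalling through SMAD proteins drives HAMP, the gene for the iron hormone hepcidin, and insulin signalling holds down IGFBP1 through the factor FOXO1.

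The libraries held 19066562 to 29423692 counts with SDT and 19057230 to 26819932 with PMT. All 12 hepatocyte-lineage markers were above 1 CPM, and their summed level was 60400 to 64000 CPM with SDT and 59700 to 64400 CPM with PMT. CPM here is the usual scaling of counts to library size, after TMM adjustment. The lists of fibroblast, endothelial, leukocyte, and biliary and lung markers each had 2 or 3 of 10 members above 1 CPM in any of these libraries, and the most abundant were LYZ (1200 CPM) and SOX9 (205 CPM). The mitochondrial genome gave 19.4% of the counts with SDT and 20.5% with PMT, a mean difference over doses of -1.1 percentage points (exact permutation test within doses, two-sided, p = 0.28, 1000 permutations). The SDT libraries numbered 1, which have no PMT library of that number among those analysed here, stood apart in the signal recognition particle RNAs. RN7SL1 was at 4.81 to 9.29 CPM in those 3 libraries, against 2.06 to 4.56 CPM in the 12 libraries numbered 2 and 3, so results that lean on them are also given without them. The labels do not say that replicates are separate cultures, so p-values measure the spread between these samples, which may be technical. Formula and dose both go together with the last number of the sample code, and the labels do not say what that number marks. Neither the formula nor the dose can therefore be told apart from it.

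No gene passed the test between the formulas with all doses pooled. Of 15401 genes tested, 0 were higher and 0 lower with SDT than with PMT at an adjusted p below 0.05, 0% in either direction (edgeR quasi-likelihood test, Benjamini-Hochberg adjustment). At an unadjusted p below 0.05 there were 1004 genes, 6.52% of those tested, with 481 higher and 523 lower in SDT. That count was 643 of 15191 genes, 4.23%, without the replicate 1 libraries, and 738 of 15401 with replicate number as a block (edgeR). DESeq2 called 2 genes higher (IGFBP1 and CCN2) and 1 lower (DAD1), with 773 at an unadjusted p below 0.05. Its own filter on level left many genes without an adjusted p here, so its adjustment covers fewer genes than that of edgeR. RBX1 got none, though its unadjusted p in DESeq2 (2.05e-05) was below that of CCN2 (4.12e-05). The limma-voom test called 0, with 1015 at an unadjusted p below 0.05. The same 15 libraries did separate the doses, with 472 genes called between High and Low in both formulas together, 3.06% of those tested. That count depended on single libraries: it was 305 without SDT High replicate 1, 307 without PMT Low replicate 3, 313 without SDT Low replicate 3 and 249 without all 3 replicate 1 libraries. Summed over the tested genes, dose took 16.8% of the variation in log2 CPM for 14.3% of the degrees of freedom. The formula took 7.13% for 7.14% of them.

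How small a difference these libraries could have shown depended on the level of the gene. The median half-width of the 95% interval for SDT minus PMT was 0.111 on the log2 scale, a 1.08-fold difference; these intervals are per gene and not adjusted for the number of genes. For 10600 genes, 68.8% of those tested, the whole interval lay within 1.2-fold in either direction, and for 13355 genes, 86.7%, within 1.5-fold. Among genes at 100 CPM and over, 97.6% of intervals lay within 1.2-fold. Among genes below 1 CPM none did, 27.1% lay within 1.5-fold and 81.1% within 2-fold.

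**Figure D1:**
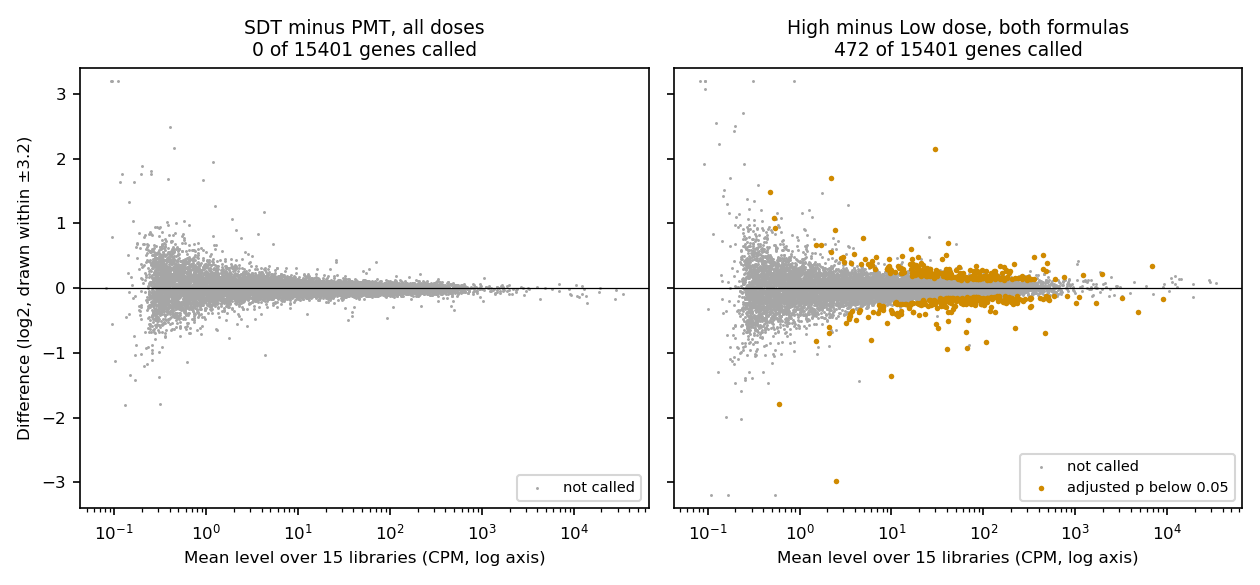
Difference on the log2 scale (y axis, drawn within ±3.2) against the mean level over the 15 libraries in CPM (x axis, log scale), one point per gene tested. SDT minus PMT over all doses is on the left with 0 of 15401 genes called, and High minus Low dose over both formulas is on the right with 472 called, CYP1A1 uppermost among them and HAMP the lowest.

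The gene nearest to the threshold was IGFBP1, the insulin-like growth factor binding protein that liver cells secrete and that insulin suppresses (chr7:45888357-45893668, plus strand, GRCh38). At Low, SDT libraries had 220, 221 and 229 CPM, against 176 and 228 CPM with PMT. At Medium, SDT libraries had 242, 241 and 247 CPM, against 210 and 209 CPM with PMT. At High, SDT libraries had 196, 211 and 209 CPM, against 170 and 168 CPM with PMT. The groups were apart at Medium and High, and at Low 1 of the 2 PMT libraries lay among the SDT libraries. Over all doses the log2 difference was 0.22 (SE 0.04, 95% interval 0.13 to 0.30), with an unadjusted p = 1.47e-05 and an adjusted p = 0.227 in edgeR's quasi-likelihood test. That test called it without PMT Low replicate 3, the library at 228 CPM (log2 difference 0.27, adjusted p = 2.34e-05), and DESeq2 called it on all 15 libraries (adjusted p = 0.00072). Without the replicate 1 libraries the difference was 0.23 with an adjusted p = 0.456 in edgeR. IGFBP1 also fell with dose over both formulas (High minus Low -0.18, adjusted p = 0.0418, edgeR).

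The other 4 genes with the smallest p among those higher in SDT did not pass either. Beside IGFBP1 these were TNS1, which encodes a tensin of focal adhesions, and CCN2, a secreted matricellular protein and known YAP and TGF-beta target. The others were TRIM56, a ubiquitin ligase of antiviral defence, and DEPDC5, a subunit of the GATOR complex that restrains mTORC1. TNS1 (chr2:217799588-218033982, minus strand) had 15.4, 16.5 and 20.2 CPM as lowest, median and highest of the 9 SDT libraries, against 11.5, 14.1 and 16.5 CPM of the 6 PMT libraries. CCN2 (chr6:131948176-131951373, minus strand) had 108, 123 and 131 CPM in SDT libraries, against 96, 108 and 117 CPM in PMT libraries. For both genes the ranges overlapped and the medians were higher with SDT. The log2 differences were 0.30 (SE 0.06, interval 0.17 to 0.43) for TNS1 and 0.18 (SE 0.04, interval 0.10 to 0.27) for CCN2, each with an adjusted p = 0.333 in edgeR. TRIM56 differed by 0.19 (interval 0.10 to 0.29) and DEPDC5 by 0.19 (interval 0.09 to 0.29), with adjusted p of 0.333 and 0.487 in edgeR.

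The 5 genes named by the same rule as lower in SDT did not pass the test. RBX1 encodes the RING subunit of cullin ubiquitin ligases, DAD1 a subunit of the oligosaccharyltransferase that N-glycosylates proteins in the endoplasmic reticulum, and DPM2 a subunit of the enzyme that makes the mannose donor there. TIMM9 is a chaperone of the mitochondrial intermembrane space, and RHNO1 a checkpoint protein of the DNA damage response. RBX1 (chr22:40951347-40973309, plus strand) had 21.2, 22.9 and 26.5 CPM as lowest, median and highest with SDT, against 24.6, 27.2 and 30.6 CPM with PMT. DAD1 (chr14:22564905-22589269, minus strand) had 287, 313 and 355 CPM with SDT, against 345, 363 and 386 CPM with PMT. In DAD1 the groups were apart at Low, where SDT libraries had 287, 313 and 287 CPM and PMT libraries 386 and 367 CPM, and at High, where SDT libraries had 312, 338 and 323 CPM and PMT libraries 371 and 345 CPM. They overlapped at Medium. The log2 differences were -0.23 for RBX1 (SE 0.05, interval -0.32 to -0.13, adjusted p = 0.262) and -0.20 for DAD1 (SE 0.04, interval -0.30 to -0.11, adjusted p = 0.333) in edgeR. RHNO1, DPM2 and TIMM9 differed by -0.16, -0.16 and -0.18, each with an adjusted p = 0.333 in edgeR. DAD1 was called by DESeq2 (adjusted p = 0.00397) and, in edgeR, without SDT Medium replicate 2 (log2 difference -0.23, adjusted p = 0.0271), the SDT library at 355 CPM.

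**Figure D2:**
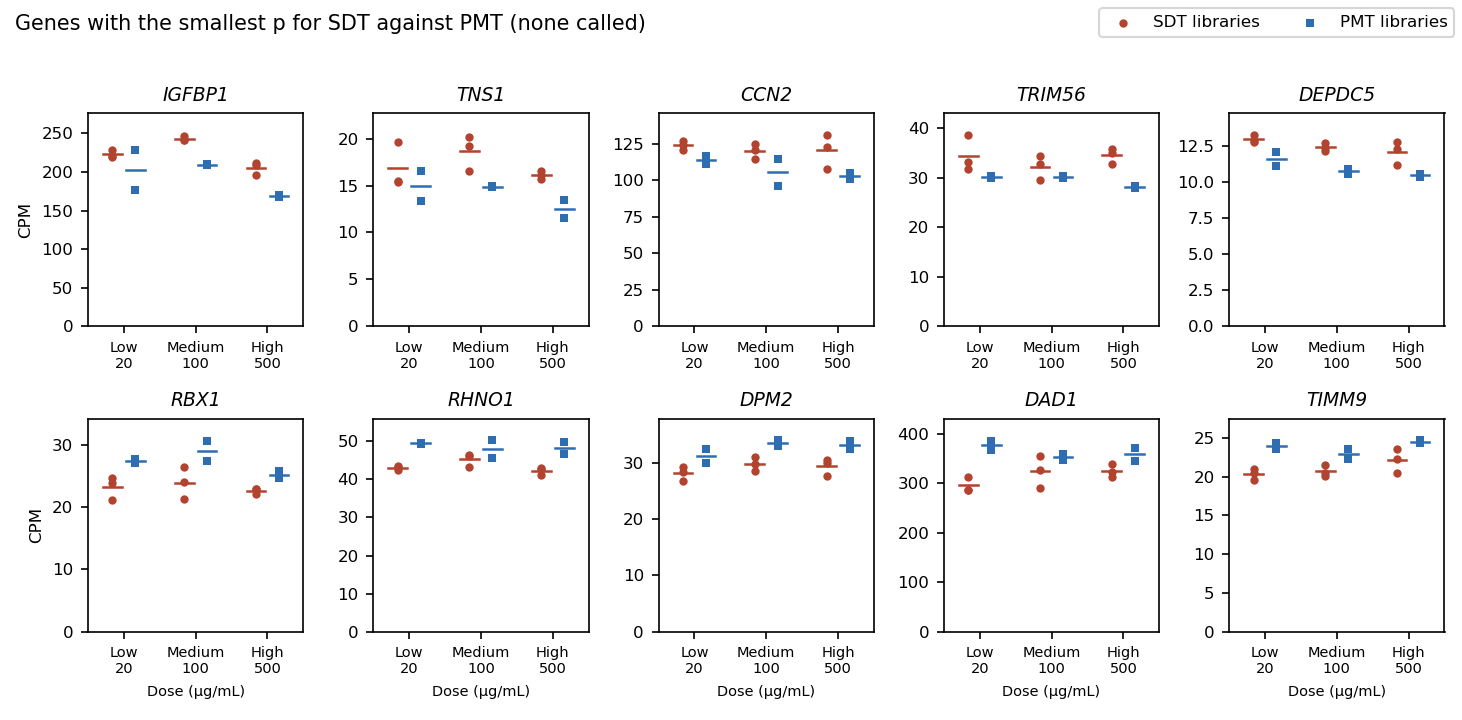
Level in CPM (y axis from 0) of the 5 genes with the smallest p in each direction, by dose in µg/mL (x axis), with SDT libraries as circles on the left and PMT libraries as squares on the right of each dose; bars are means of 3 and 2 libraries. The genes were chosen to have the same direction at every dose. Higher SDT means for the upper genes and lower ones for the lower genes at each dose follow from that choice. Of the 10 genes, 0 passed the test (edgeR, adjusted p 0.227 to 0.487).

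Dose by dose the comparison rests on 3 against 2 libraries. At High 1 identifier was called, 0.00649% of those tested, at Medium 0 (0%) and at Low 0 (0%), with 799, 611 and 721 genes at an unadjusted p below 0.05 in edgeR. DESeq2 called 2, 0 and 2. The differences at separate doses share no library. Their signs were the same in 53.1% of genes for High and Medium, 54.1% for High and Low and 51.8% for Medium and Low. Across the 12897 genes at 1 CPM and over, which are not independent replicates, Spearman's rho was 0.0542, 0.0951 and 0.0572 for those pairs of doses.

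The identifier called at High was ENSG00000233024, a member of the NPIPA family of near-identical copies on chromosome 16 (16:18358086-18379331, minus strand, GRCh38), and was singled out after its values were seen. At Low it had 29.6, 27.9 and 31.8 CPM with SDT, against 40 and 42.7 CPM with PMT. At Medium it had 35.4, 41.8 and 39.2 CPM with SDT, against 26.5 and 31.8 CPM with PMT. At High it had 26.6, 29.8 and 31.3 CPM with SDT, against 20.0 and 20.0 CPM with PMT. The groups did not overlap at any dose, but SDT was the lower one at Low and the higher one at Medium and High, with log2 differences of -0.47, 0.40 and 0.55. The adjusted p was 0.0489 at High and 0.000365 for the interaction of formula and dose (edgeR), the 1 gene called there, again 0.00649% of those tested, with 534 genes at an unadjusted p below 0.05. The call at High was lost without any 1 of 8 libraries and in limma-voom (adjusted p = 0.0915), and the fit on all 54 libraries called 0 genes at High and 0 for the interaction. Reads of such copies can be split between them by the counting, so the level of this 1 copy is uncertain. Summed over the 8 NPIPA identifiers, the mean level was 155, 171 and 150 CPM at Low, Medium and High with SDT, and 172, 141 and 134 CPM with PMT.

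With dose, CYP1A1, ALDH3A1 and NQO1 rose and HAMP, ID1, ID3 and MT2A fell over both formulas. Of the 472 genes called between High and Low over both formulas, 217 rose (1.41% of those tested) and 255 fell (1.66%); between Medium and Low 17 were called (0.11%). Read within each formula, the median rise was 0.227 on the log2 scale in SDT and 0.228 in PMT, and the median fall was -0.206 and -0.215. The response was larger in SDT for 245 of the 472 and larger in PMT for 227, and the interaction test called none of them. The interval for SDT minus PMT over all doses lay within 1.2-fold for 444 of them, 94.1%, and the interval at High alone lay within 1.5-fold for 456, 96.6%. The same shares were 68.8% and 75.2% over all genes tested, and 98.2% and 99.2% among genes at 10 to 100 CPM. Choosing the 472 genes on both formulas together favours genes that moved alike, so each formula was also read against the other, with no library shared. Of 163 genes called between High and Low in SDT (1.06% of those tested), 160 had the same sign in PMT, 98.2%, against 60.3% of all genes tested. Of 70 called in PMT (0.455%), 70 had the same sign in SDT. The 48 genes called in both are 29.4% of the SDT list and 68.6% of the PMT list.

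CYP1A1, the aromatic-hydrocarbon-metabolising cytochrome that AhR drives, rose most with dose. Its promoter is shown because the gene has the largest rise called between Low and High. The lines here and further on give promoter sequences from RefSeq (GRCh38.p14), from 250 bases before to 50 bases after the annotated start, 5′ to 3′ on the gene's strand. Capitals mark the letters GCGTG, the core of the xenobiotic response element, searched on both strands; 36.3% of the 27305 promoters in the table hold them. Of the 34 genes named by p or by dose, 24 had a promoter in the table. GCGTG was in 2 of 8 promoters of genes that rose with dose, 6 of 8 that fell and 4 of 8 named by p. Also searched on both strands, with N for any base, were GAANNTTC of the heat shock element (6.87% of all promoters), the cAMP response element TGACGTCA (1.98%) and the E-box CACGTG (7.43%). A match is a description of the letters and not a bound site.
CYP1A1 promoter, chr15:74725479-74725778, minus strand: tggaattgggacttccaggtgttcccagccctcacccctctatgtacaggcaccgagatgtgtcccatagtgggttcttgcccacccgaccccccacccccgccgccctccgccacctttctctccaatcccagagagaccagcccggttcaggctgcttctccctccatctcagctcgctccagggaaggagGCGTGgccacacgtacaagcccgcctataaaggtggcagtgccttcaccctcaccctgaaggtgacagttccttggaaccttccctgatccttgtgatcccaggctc
At Low, CYP1A1 had 11.5, 11.9 and 12.4 CPM with SDT, against 13.7 and 13.3 CPM with PMT. At Medium it had 20.5, 20.6 and 18.9 CPM with SDT, against 22.3 and 18.0 CPM with PMT. At High it had 52.7, 55.0 and 48.0 CPM with SDT, against 60.9 and 61.8 CPM with PMT. SDT libraries were below both PMT libraries at Low and at High and overlapped them at Medium. The rise between Low and High was 2.12 on the log2 scale with SDT (SE 0.07) and 2.18 with PMT (SE 0.09). Over all doses the SDT minus PMT difference was -0.15 (SE 0.05, interval -0.25 to -0.06, unadjusted p = 0.0033) and did not pass (adjusted p = 0.6, edgeR).

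ALDH3A1, an aldehyde dehydrogenase of the AhR battery, also rose, by 1.85 with SDT (SE 0.20) and 1.5 with PMT (SE 0.23). Its SDT libraries had 3.07, 3.06 and 3.75 CPM at High, against 4.22 and 4.13 CPM with PMT, so the groups were apart there. The difference over all doses was -0.40 (SE 0.12, interval -0.65 to -0.16) with an adjusted p = 0.6 in edgeR. Of 8 AhR list members measured, 3 rose with dose and 1 fell, beside 1.41% and 1.66% of all genes tested. The median SDT minus PMT difference of the 8 was -0.035, beside 0.001 over all genes tested. UGT1A6, the third that rose, shares exons with UGT1A1 and other UGT1A genes, so the split of its reads is uncertain.

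In the NRF2 group 15 of 24 measured members rose between Low and High and 0 fell, beside 1.41% and 1.66% of all genes tested. The gene of NRF2 itself, NFE2L2, is not in that list and fell (High minus Low -0.22 over both formulas, adjusted p = 0.000476, edgeR). NQO1, a quinone reductase, had 285 to 327 CPM at Low with SDT, against 295 and 316 CPM with PMT. At High NQO1 had 390, 418 and 404 CPM with SDT, against 434 and 476 CPM with PMT. The groups overlapped at Low and were apart at High, SDT being lower. The rise of NQO1 was 0.41 with SDT and 0.58 with PMT, and its difference over all doses was -0.09 (interval -0.16 to -0.02, adjusted p = 0.639, edgeR). GCLM, the modifier subunit of the enzyme that starts glutathione synthesis, rose by 0.44 with SDT and 0.47 with PMT, and differed by -0.09 (interval -0.17 to -0.01, adjusted p = 0.726, edgeR). The promoter of GCLM is shown with its 1 match to the antioxidant response element core TGACNNNGC in capitals, on the opposite strand. These letters are in 13.6% of all promoters, and the same window of NQO1 had 0 matches. Among the 24 promoters of genes named by p or by dose, 0 of 8 that rose with dose held them. So did 3 of 8 that fell and 1 of 8 named by p.
GCLM promoter, chr1:93909381-93909680, minus strand: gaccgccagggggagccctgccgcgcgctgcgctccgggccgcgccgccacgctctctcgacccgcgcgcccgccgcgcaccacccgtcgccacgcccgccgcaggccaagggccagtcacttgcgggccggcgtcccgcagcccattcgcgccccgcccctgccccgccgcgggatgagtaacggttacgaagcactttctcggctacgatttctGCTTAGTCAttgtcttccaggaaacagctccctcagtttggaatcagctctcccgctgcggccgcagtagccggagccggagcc
AKR1B10, an aldo-keto reductase, rose by 0.66 with SDT and 0.77 with PMT, UGT1A1, the bilirubin conjugating enzyme, by 0.58 and 0.66, and the ferritin light chain FTL by 0.34 over both. The median difference between the formulas over the 24 NRF2 members was -0.025, with 16 below 0 and 8 above, and the interval of all 24 lay within 1.2-fold. At an unadjusted p below 0.05 there were 4 of them, NQO1, GCLM, TXNRD1 and SRXN1, beside 6.52% of all genes, each lower in SDT by 0.07 to 0.09 on the log2 scale. Without the replicate 1 libraries 0 of the 24 were below 0.05, with unadjusted p of 0.0796, 0.0601, 0.056 and 0.111 for these 4 in edgeR.

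HAMP fell most with dose in both formulas, and with it the BMP and SMAD target genes ID1, ID2, ID3 and SMAD7. HAMP encodes hepcidin, which blocks iron export from cells, and its promoter is shown with the BMP response element core GGCGCC in capitals, letters that 19% of all promoters hold. Of 8 promoters of genes that fell with dose, 1 held them, and those of ID1 and ID3 had 0 matches.
HAMP promoter, chr19:35282278-35282577, plus strand: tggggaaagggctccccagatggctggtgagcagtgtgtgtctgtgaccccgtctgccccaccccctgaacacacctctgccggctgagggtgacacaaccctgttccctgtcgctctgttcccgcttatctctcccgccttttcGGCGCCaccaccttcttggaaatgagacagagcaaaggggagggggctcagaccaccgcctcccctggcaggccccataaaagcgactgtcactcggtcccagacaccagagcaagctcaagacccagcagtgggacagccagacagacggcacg
At Low, HAMP had 3.43, 5.55 and 3.82 CPM with SDT, against 4.92 and 3.85 CPM with PMT. At Medium it had 2.29, 2.65 and 2.80 CPM with SDT, against 2.33 and 2.55 CPM with PMT. At High it had 0.444, 0.604 and 0.522 CPM with SDT, against 0.597 and 0.548 CPM with PMT. The formulas overlapped at every dose, and each High library was below each Low library. The change from Low to High was -3.02 with SDT (SE 0.22) and -2.93 with PMT (SE 0.27), and the SDT minus PMT difference was -0.01 (interval -0.26 to 0.25). At High alone the difference was -0.13 with a wider interval, -0.85 to 0.60. ID3, an inhibitor of helix-loop-helix factors, fell by 1.35 with SDT and 1.34 with PMT on the log2 scale, and differed by -0.05 (interval -0.17 to 0.07). ID1 fell by 1.03 with SDT and 0.78 with PMT and differed by -0.07 (interval -0.19 to 0.04). SMAD7, the inhibitory SMAD, fell by 0.87 and 0.71 with SDT and PMT and differed by -0.06 (interval -0.22 to 0.10). None of these differences passed, with adjusted p of 0.918 to 0.996 for HAMP, ID3 and SMAD7 and of 0.860 for ID1 in edgeR.

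**Figure D3:**
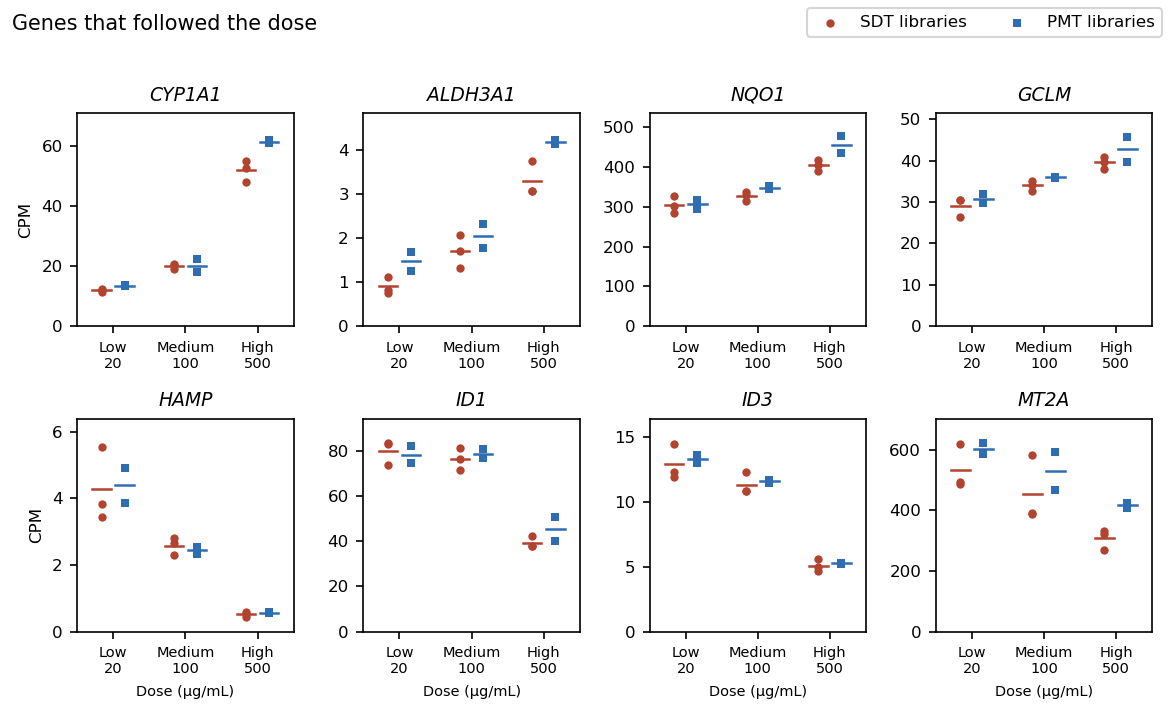
Level in CPM (y axis from 0) of 8 genes by dose in µg/mL (x axis), with SDT libraries as circles on the left and PMT libraries as squares on the right of each dose; bars are means of 3 and 2 libraries. CYP1A1, ALDH3A1, NQO1 and GCLM rise and HAMP, ID1, ID3 and MT2A fall toward High in both formulas.

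Metallothioneins, small zinc- and copper-binding proteins, fell with dose and were also the protein-coding group with the lowest median difference between the formulas. Beside shares of 1.66% and 1.41% of all genes tested, 7 of 13 measured genes of metallothioneins and zinc transporters fell and 2 rose with dose. Their median SDT minus PMT difference was -0.271, beside 0.001 over all genes tested, and 6 of the 13 had an unadjusted p below 0.05, beside 6.52% of all genes. MT2A had 268, 332 and 321 CPM at High with SDT, against 408 and 425 CPM with PMT. At Medium MT2A had 387, 582 and 391 CPM with SDT, against 591 and 466 CPM with PMT. The groups were apart at High and overlapped at Medium and at Low. The difference was -0.28 for MT2A (interval -0.52 to -0.04, adjusted p = 0.698), -0.30 for MT1X (interval -0.51 to -0.09, adjusted p = 0.639) and -0.27 for MT1E (interval -0.46 to -0.08, adjusted p = 0.639) in edgeR. Without the replicate 1 libraries these were -0.20, -0.21 and -0.18, and the median of the group was -0.157, and MT1E and MT1X were the 2 members at an unadjusted p below 0.05, beside 4.23% of all genes. MT1F was among the 6 genes called between replicate numbers 2 and 1. Metallothionein genes are near-identical neighbours on chromosome 16, so reads may be split between copies. The promoters of MT2A and MT1X are shown because both hold the letters TGCGCNC in 2 places, in capitals. These letters are a form of the metal response element core, and other forms of it were not searched or marked. At least 1 match to TGCGCNC was in 20% of all promoters, in 3 of 8 of genes that fell with dose and in 2 of 8 that rose.
MT2A promoter, chr16:56608334-56608633, plus strand: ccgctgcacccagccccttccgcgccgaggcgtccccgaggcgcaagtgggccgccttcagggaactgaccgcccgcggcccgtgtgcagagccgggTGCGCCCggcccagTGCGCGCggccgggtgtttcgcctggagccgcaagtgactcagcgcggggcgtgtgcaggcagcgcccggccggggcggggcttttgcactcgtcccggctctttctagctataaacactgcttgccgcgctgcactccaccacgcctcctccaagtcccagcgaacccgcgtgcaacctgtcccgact
MT1X promoter, chr16:56682220-56682519, plus strand: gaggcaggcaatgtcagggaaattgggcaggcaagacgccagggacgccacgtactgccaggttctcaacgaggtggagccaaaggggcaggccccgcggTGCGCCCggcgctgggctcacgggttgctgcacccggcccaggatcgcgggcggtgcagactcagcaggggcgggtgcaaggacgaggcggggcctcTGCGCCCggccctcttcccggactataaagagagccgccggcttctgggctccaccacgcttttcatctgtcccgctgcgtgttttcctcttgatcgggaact

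**Figure D4:**
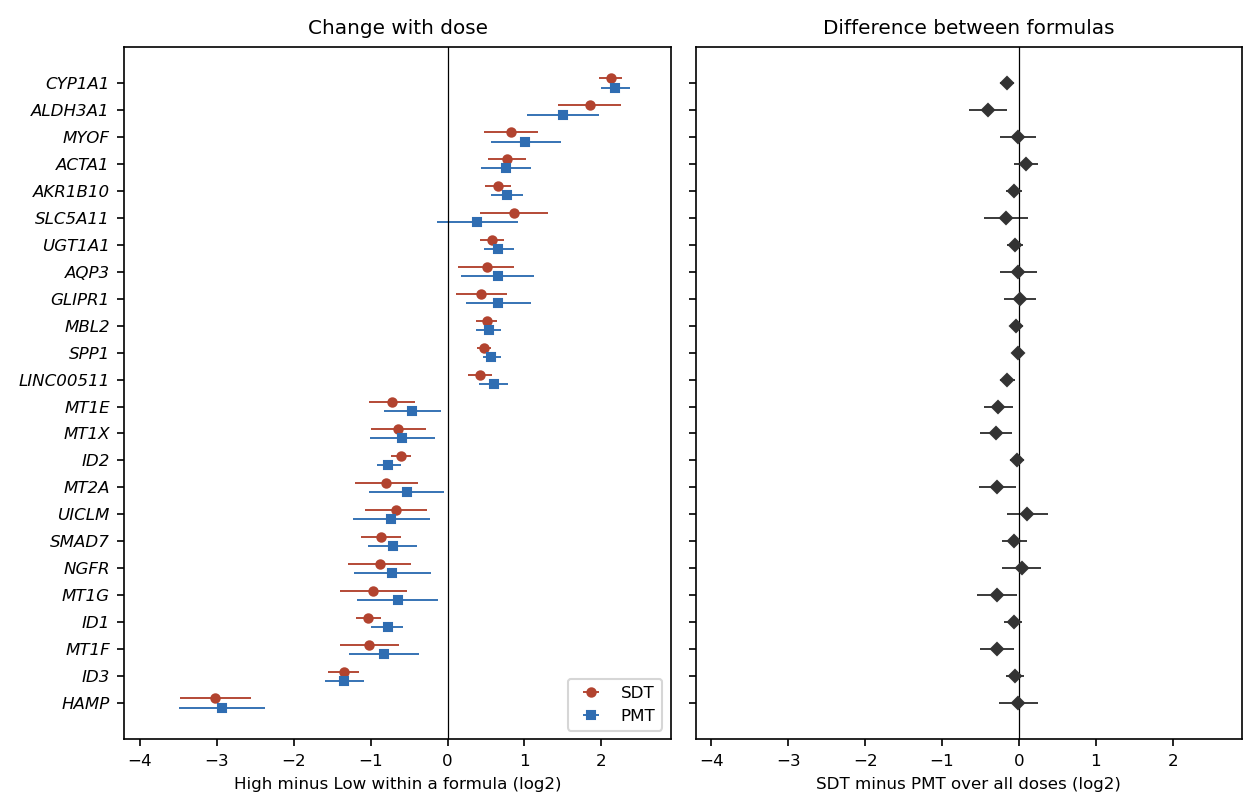
High minus Low on the log2 scale within SDT (circles) and PMT (squares) on the left, and SDT minus PMT over all doses (diamonds) on the right, for the 12 genes with the largest rise and the 12 with the largest fall with dose among called genes at a mean of 1 CPM and over; lines are 95% intervals. Dose changes run from -3.02 to 2.18, and the differences between the formulas lie between -0.40 and 0.11. The genes were chosen for large dose changes, so the wider range on the left follows from that choice.

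Some genes of lipid synthesis fell with dose, beside 1.66% of all genes tested. Of 22 measured genes of cholesterol synthesis and uptake, 8 fell, 0 rose and 14 did not pass, with medians of -0.133 in SDT and -0.128 in PMT. Of 15 genes of fatty acid and triglyceride synthesis, 10 fell, 0 rose and 5 did not pass, with medians of -0.136 in SDT and -0.196 in PMT. FASN, the fatty acid synthase, averaged 1510 ± 48.0 CPM at High with SDT (SD, n = 3) and 1500 ± 25.6 CPM with PMT (SD, n = 2). The median difference between the formulas was -0.014 for the cholesterol genes and 0.006 for the fatty acid genes, and 22 of 22 and 14 of 15 intervals lay within 1.2-fold.

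Over all 43 gene lists, 641 of the 727 listed genes were measured and 0 of them were called between the formulas. In 38 lists the median SDT minus PMT difference lay between -0.038 and 0.046. The metallothionein list and 4 others lay further out: mitochondrially encoded genes (-0.122, 13 measured), abundant small noncoding RNAs (0.726, 4 measured), fibroblast and stellate markers (0.158, 3 measured) and the insulin-like growth factor axis (0.064, 9 measured). Among the small RNAs, RN7SL2 differed by 1.17 and RN7SL1 by 0.84, and by 0.57 and 0.42 without the replicate 1 libraries, where the median of that list was 0.498. Which lists lay further out than 0.05 also depended on those libraries. Without them 7 lists did, the nuclear long noncoding RNAs (0.113), replication-dependent histones (0.081) and bile acid genes (0.058) among them, and the insulin-like growth factor axis (0.049) did not. Among fibroblast and stellate markers the measured ones were PDGFRB, RGS5 and COL1A1, and PDGFRB had 5.03, 5.55 and 7.88 CPM as lowest, median and highest with SDT, against 3.92, 4.83 and 6.96 CPM with PMT. The summed level of the 10 markers was 6.60 to 10.0 CPM with SDT and 5.50 to 7.96 CPM with PMT, so the groups overlapped, and 2 of the 10 were at 0 in all 15 libraries. The part of such cells in the results was not tested. In bulk RNA, fewer cells of a type and less RNA per cell cannot be told apart.

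In the insulin-like growth factor axis 4 of 9 members had an unadjusted p below 0.05, beside 6.52% of all genes, and these 4 were higher in SDT. Beside IGFBP1 these were IGFBP4, another binding protein (0.18), the growth-promoting receptor IGF1R (0.11) and the clearance receptor IGF2R (0.11). IGF2 itself, the ligand HepG2 cells make, differed by 0.06 (interval -0.06 to 0.18). Below 0 were IGFALS, the acid-labile subunit of the circulating complex (-0.34, interval -0.77 to 0.09), IGFBP2 (-0.08) and IGFBP6 (-0.01). Without the replicate 1 libraries 3 of the 9 were below 0.05, IGF1R no longer among them. None of the 9 passed the adjusted test (edgeR), with an adjusted p of 0.227 for IGFBP1 and 0.878 for IGF2. In the overlapping list of gluconeogenesis and insulin signalling targets, 3 of 17 had an unadjusted p below 0.05, namely IGFBP1, the glucose-6-phosphatase G6PC1 (0.16) and the insulin receptor INSR (0.10).

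Hypoxia and glycolysis genes gave 7 of 27 members at an unadjusted p below 0.05, beside 6.52% of all genes, and their median was 0.021. The carbonic anhydrase CA9, a textbook target of hypoxia-inducible factor, differed by 0.34 (unadjusted p = 0.000904), the phosphofructokinase regulators PFKFB3 by 0.23 and PFKFB4 by 0.15. Without the replicate 1 libraries 4 of the 27 were below 0.05, and these 3 differed by 0.41, 0.24 and 0.15, with adjusted p of 0.456, 0.999 and 0.999 in edgeR. The glycolytic enzymes GAPDH and TPI1 differed the other way, by -0.10 and -0.08. GAPDH averaged 2680 ± 93.1, 2900 ± 192 and 2800 ± 198 CPM at Low, Medium and High with SDT (SD, n = 3), and 3000 ± 8.24, 2970 ± 119 and 3020 ± 156 CPM with PMT (SD, n = 2).

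Differences of mitosis genes were mostly below 0. Of 24 mitosis genes 22 had a difference below 0, beside 49.6% of all genes, and 6 an unadjusted p below 0.05, beside 6.52%, with a median of -0.036, and the interval of all 24 lay within 1.2-fold. Without the replicate 1 libraries 5 were below 0.05. The anaphase activator CDC20 (-0.09), the kinesin KIF20A (-0.09) and cyclin CCNA2 (-0.08) were among the 6. DNA replication genes had a median of -0.014 with 24 of 24 intervals within 1.2-fold. Stress pathways had medians close to that of all genes: heat shock genes had a median of -0.021, the unfolded protein response one of 0 and the integrated stress response 0.021, with 17 of 18, 17 of 18 and 18 of 21 intervals within 1.2-fold. Hepatocyte secreted and lineage genes had a median of -0.001 and 24 of 25 intervals within 1.2-fold, albumin (ALB) differing by -0.01.

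**Figure D5:**
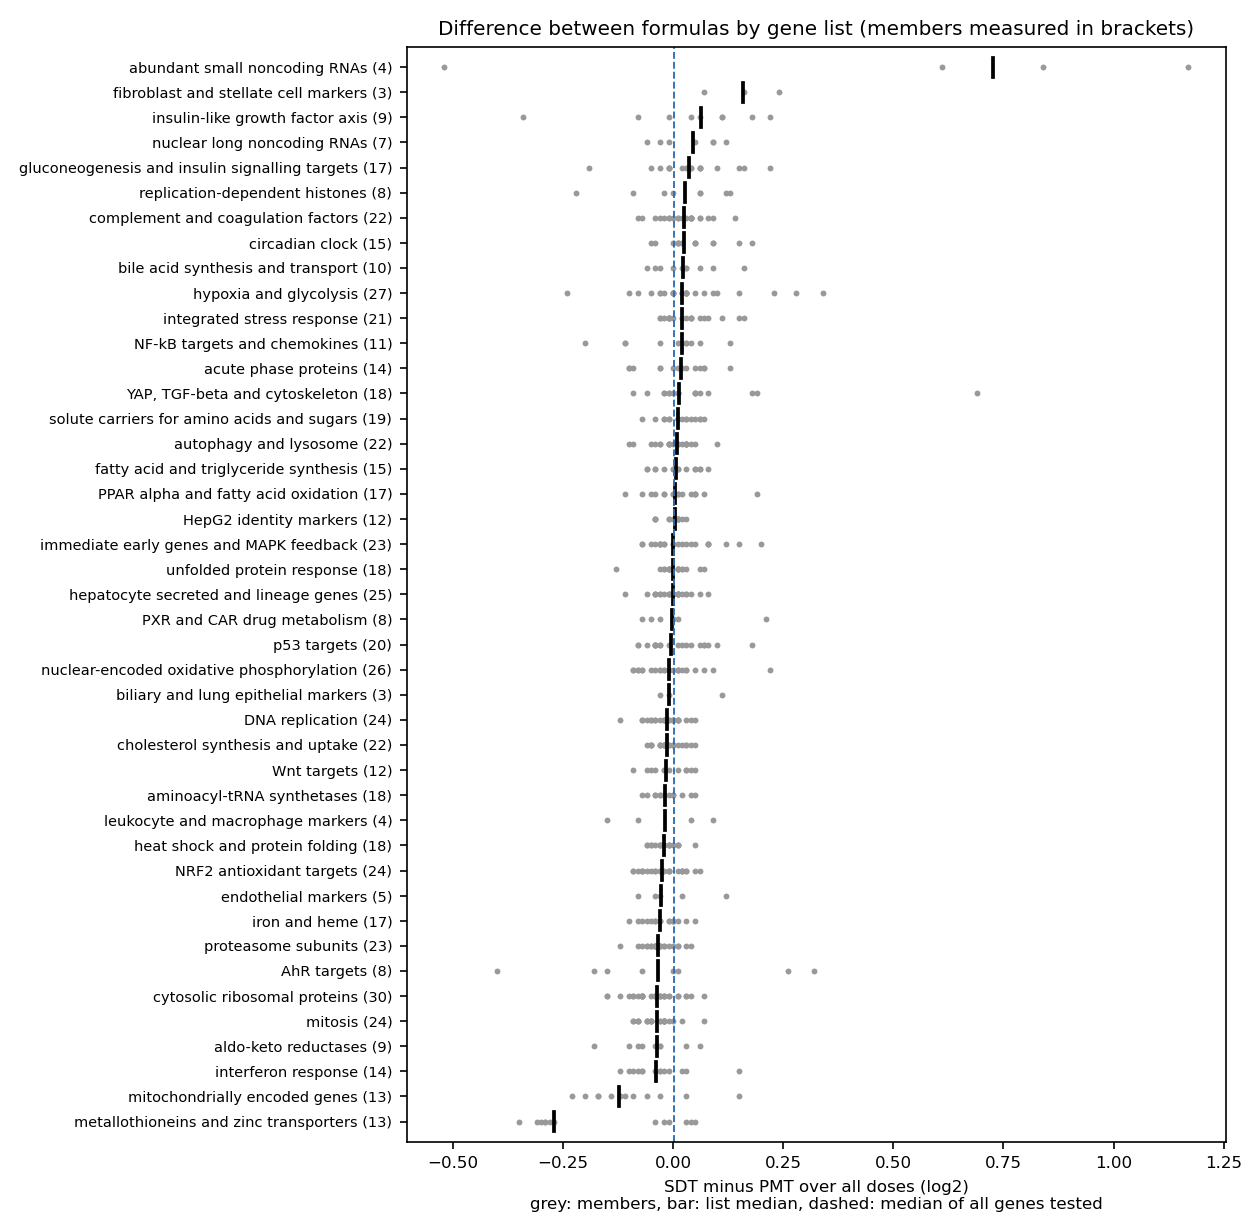
SDT minus PMT over all doses on the log2 scale (x axis) for the members of 43 gene lists (y axis, number measured in brackets), with grey points for members, black bars for list medians and a dashed line for the median of all genes tested, 0.001. In 38 lists the median lies between -0.038 and 0.046; small noncoding RNAs and fibroblast markers lie furthest to the right, metallothioneins and mitochondrially encoded genes furthest to the left.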

How the data were processed

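Directional mRNA libraries were made from 1 µg of RNA per sample (integrity number above 7) and read as paired 100-base ends on an MGI instrument, per the labels' protocols. Per the submitters' processing notes the tools were FastQC 0.11.9, Trim Galore 0.6.5, STAR 2.7.3a and RSEM 1.3.3. The values are expected counts per gene, which the authors deposited in a single table; 60 of its sample columns were matched to labels and 210 other columns were not used. Some of the unused columns carry codes of the PMT pattern but match no labelled sample. Of the nonzero values used, 23.4% were not whole (tolerance 0.005), and all were rounded to whole numbers. Coordinates are from GENCODE 29 (GRCh38).

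Genes were kept by filterByExpr over the 6 groups of formula and dose (15401 of 60675). TMM scaling and edgeR's robust quasi-likelihood test (edgeR 4.0.16, limma 3.58.1, R 4.3.3) were used with dose and formula as terms, which leaves 11 residual degrees of freedom. Single doses and the interaction used one coefficient per group. A gene was called at a Benjamini-Hochberg adjusted p below 0.05, and intervals are 95%. Levels are printed as CPM, computed with TMM-adjusted library sizes. DESeq2 1.42.0 and limma-voom were alternatives. DESeq2 adjusted p only over the genes that passed its own filter on level. The code was tested on simulated data.

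Replicate numbers 2 and 3 occur in both formulas. Deviations of same-numbered libraries correlated at 0.0211 to 0.0828 in 6 pairs, with 0 over 0.1, so the numbers were not taken to pair the samples.

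The members and gene lists were chosen with earlier results of these data known. The text names genes called over all doses with a symbol, a mean of at least 1 CPM and the same direction at all 3 doses. Where fewer than 5 pass in a direction, the text names the 5 with the smallest p that meet the other conditions. It also takes the 12 called dose genes per direction with the largest change at a mean of at least 1 CPM, some of them only in the plots, and list members called with dose. List members named between the formulas without a call, and the BMP and metal response element motifs, were chosen after their values were seen.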

Additional observations from a re-analysis of the deposited data

Results flagged for a closer look

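For 1 identifier the difference between SDT and PMT changed with dose by a test of the difference itself. ENSG00000233024, of the NPIPA family, had an adjusted p = 0.000365 for the interaction of formula and dose (edgeR quasi-likelihood test, Benjamini-Hochberg adjustment). SDT minus PMT was -0.47 at Low, 0.40 at Medium and 0.55 at High on the log2 scale, and the High minus Low response differed by 1.02 (interval 0.76 to 1.27). The 7 other identifiers of the family together averaged 125, 132 and 121 CPM at Low, Medium and High with SDT, and 131, 112 and 114 CPM with PMT. The fit on all 54 libraries called 0 genes for the interaction. How reads were divided among the copies was not tested.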

How the results depend on the processing

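Of the 3911 recomputed values of 135 genes, 3876 were counted as unchanged, 17 moved, 18 newly passed and 0 passed with the reverse sign. Unchanged means not called, with a shift within the residual SD of the gene's log2 CPM between libraries. Values without an adjusted p in DESeq2, those of TNS1 and RBX1 among them, were also counted as unchanged, so the count overstates the stability. DESeq2 called 2 genes higher and 1 lower over all doses, 2 at High and 2 at Low. With no low-count filter (29215 genes) 14 were higher and 13 lower over all doses, 21 were called at High, 9 at Medium, 11 at Low and 22 for the interaction. At High 0 were called by limma-voom, by glmTreat against a fold of 1.2, with the mitochondrial share as a covariate and with all 54 libraries in the fit, which also called 0 for the interaction. The covariate called 1 gene higher over all doses (TNS1, log2 difference 0.36, adjusted p = 0.00583, edgeR) and 2 for the interaction. Replicate 2 libraries alone gave 12 higher and 15 lower, and replicate 3 libraries alone 24 and 11. Without replicate 1 the interaction called 2 genes, and with a replicate block as well, an alternative chosen after seeing the data, 3. Between the formulas, the replicate block called 1 gene at Low and changed no other count of calls; it called 474 genes between High and Low dose, against 472. That dose count was 305 to 521 on leaving out 1 library, 249 without replicate 1, 263 with a replicate block as well, 257 and 1292 with replicate 2 or 3 alone, 693 with no low-count filter, 751 with the covariate, 21 by glmTreat and 435 to 580 under the others. Leaving out each of the 15 libraries in turn gave 0 to 1 higher, 0 to 1 lower, 0 to 2 at High, 0 to 1 at Medium, 0 to 3 at Low and 1 to 3 for the interaction. The cause of these changes was not tested. Depth limits the genes below 1 CPM most.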

Other observations

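Beside the formulas, the vehicle libraries place CYP1A1 and some of the genes nearest to a call, with levels scaled over all 60 libraries together. The vehicle libraries differed in makeup: the mitochondrial genome gave 13.4% to 15.2% of their counts, against 17.7% to 24.8% in the formula libraries. IGFBP1 averaged 228 ± 5.77, 249 ± 3.13 and 210 ± 8.39 CPM at Low, Medium and High with SDT (SD, n = 3), 206 ± 37.6, 214 ± 1.04 and 172 ± 1.37 CPM with PMT (SD, n = 2), and 118 ± 15.1 CPM with vehicle (SD, n = 3). TNS1 averaged 16.5 CPM at High with SDT and 12.8 CPM with PMT, against 8.56 ± 0.632 CPM with vehicle (SD, n = 3). CCN2 averaged 136 ± 14.4 CPM with vehicle (SD, n = 3), and its levels with SDT and PMT are given further up, scaled over the formula libraries alone. CYP1A1 averaged 53 ± 3.58 CPM at High with SDT (SD, n = 3) and 62.6 ± 0.636 CPM with PMT (SD, n = 2), against 11.3 ± 0.793 CPM with vehicle (SD, n = 3). Differences from vehicle were not tested here.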
